A study of Mus musculus with 18 samples.

Results

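The enzymes that carry squalene synthesis through to a sterol without its extra methyl groups were examined in mouse embryonic fibroblasts (MEFs) grown in different sera. The 9 genes were taken by symbol from the count table: Fdft1, Sqle, Lss, Cyp51, Tm7sf2, Lbr, Msmo1, Nsdhl and Hsd17b7. Each matched 1 of the 55487 genes of the table, and all 9 were among the 15381 genes that passed the filter on low counts. The MEFs were a wild-type line and formed 6 groups with 3 RNA-seq libraries each. Scm was complete medium with S-FBS, a fetal bovine serum that left cells sensitive to ferroptosis, a form of death by lipid peroxidation, and Rcm was complete medium with R-FBS, which made cells resistant. MEFs moved from Rcm to Scm were harvested at 12 h and 24 h (R-Scm 12 h and R-Scm 24 h), and MEFs moved from Scm to Rcm at the same times (S-Rcm 12 h and S-Rcm 24 h). The libraries of Scm and Rcm are labelled 0 h. The comparisons ask how the mRNA of each enzyme differed between the sera and how it moved after the serum was exchanged. No group was given fresh medium with its own serum for 12 h or 24 h. After an exchange, the new serum, fresh medium and time in culture therefore cannot be told apart. Each medium held a single serum product, so that the serum and all that it contained cannot be told apart, and a single fibroblast line was used.

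Squalene is the first committed product of sterol synthesis, made from the last shared intermediate of the mevalonate pathway, and it is then oxidized, folded into the sterol rings of lanosterol and stripped of methyl groups on the way to cholesterol. The genes of this pathway are classical targets of the SREBP transcription factors, which are released from the endoplasmic reticulum when its sterol content is low. One of the 9 enzymes, Lbr, is also a receptor for lamin B and heterochromatin in the inner nuclear membrane.

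Promoter sequences are shown because the 9 mRNAs were compared for moving together. RefSeq promoter windows (GRCm38.p6, 250 bases before to 50 bases after a RefSeq start, 300 bases in all) were given for 7 of the 9 genes, namely Lss, Cyp51, Tm7sf2, Lbr, Msmo1, Nsdhl and Hsd17b7. These starts need not match the ends of the gene spans given below, and the Lbr window lay wholly inside the span of Lbr. The windows of Cyp51 and Hsd17b7 are printed for a match that they alone shared, that of Nsdhl because its mRNA had the widest range of the 9, and that of Lbr because its mRNA had the narrowest. Each is written 5′ to 3′ on the strand of the gene. Capitals mark the letters CCAAT, which read ATTGG where they lie on the other strand. They also mark GGGCGG, which then reads CCGCCC, and the palindrome CACGTG. The last motif in capitals is TCACCTCA.
Cyp51, chr5:4104648-4104947, minus strand: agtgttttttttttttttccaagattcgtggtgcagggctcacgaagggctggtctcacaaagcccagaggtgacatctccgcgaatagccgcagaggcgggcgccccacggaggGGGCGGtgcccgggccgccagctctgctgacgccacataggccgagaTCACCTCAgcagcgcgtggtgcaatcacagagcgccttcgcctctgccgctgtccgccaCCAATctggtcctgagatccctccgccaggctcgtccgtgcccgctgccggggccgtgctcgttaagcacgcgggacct
Hsd17b7, chr1:169969156-169969455, minus strand: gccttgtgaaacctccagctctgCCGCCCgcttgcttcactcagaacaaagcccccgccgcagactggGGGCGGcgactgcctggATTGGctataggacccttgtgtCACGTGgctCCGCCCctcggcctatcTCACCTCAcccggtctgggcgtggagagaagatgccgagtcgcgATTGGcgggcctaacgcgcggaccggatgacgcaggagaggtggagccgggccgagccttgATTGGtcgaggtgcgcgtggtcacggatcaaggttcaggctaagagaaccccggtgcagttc
Nsdhl, chrX:72918271-72918570, plus strand: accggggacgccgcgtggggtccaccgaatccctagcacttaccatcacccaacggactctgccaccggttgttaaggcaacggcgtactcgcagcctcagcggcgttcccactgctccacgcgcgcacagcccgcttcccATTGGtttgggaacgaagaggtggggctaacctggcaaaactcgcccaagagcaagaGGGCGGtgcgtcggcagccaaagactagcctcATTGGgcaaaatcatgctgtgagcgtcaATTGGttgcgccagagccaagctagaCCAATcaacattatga
Lbr, chr1:181842352-181842651, minus strand: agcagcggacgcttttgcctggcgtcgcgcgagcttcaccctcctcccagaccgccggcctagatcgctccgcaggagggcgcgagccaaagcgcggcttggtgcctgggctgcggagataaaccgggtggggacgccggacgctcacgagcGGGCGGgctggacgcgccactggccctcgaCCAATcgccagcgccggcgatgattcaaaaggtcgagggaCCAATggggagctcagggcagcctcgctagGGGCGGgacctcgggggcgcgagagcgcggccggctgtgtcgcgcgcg

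Both strands of each window were searched. CCAAT, the letters of the NF-Y box, was found in 7 of the 7 windows and in 37.4% of the 32851 RefSeq promoter windows of the same length. GGGCGG, the letters of the Sp1 box, was also found in 7 of the 7 windows, against 35.7% of all windows. Both boxes are textbook neighbours of SREBP sites. TCACNCCAC, the classical sterol regulatory element, was found in 0 of the 7 windows and in 1.24% of all windows, which says only that these letters were not in these windows. TCACCTCA, chosen after the sequences were seen, stood 88 bases before the RefSeq start of Cyp51 and 117 bases before that of Hsd17b7, and was found in 1.17% of all windows. The E-box CACGTG was found in the window of Hsd17b7 alone, against 7.15% of all windows. The matches within a window did not overlap each other.

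Library depth ran from 14534906 to 20313715 counts. The 9 genes had 90 to 6395 counts per library, with at least 499 for each gene other than Tm7sf2. Of the 8 fibroblast markers, all were expressed, with a summed level of 7913 to 11211 CPM, the count scaled to library size with TMM. Marker lists of other cell types had summed levels of at most 1.23 CPM for epithelial, 3.13 CPM for endothelial and 5.09 CPM for blood cells. A neural list of 3 genes (Sox10, Tubb3 and Nes) was higher and summed to 50.1 to 78.4 CPM, with 1 of them under 1 CPM in all libraries. No pair of replicates was alike within counting noise (chi-square per degree of freedom 9.33 to 41.1). In bulk RNA, fewer cells with an mRNA and less of it per cell cannot be told apart. The labels do not say that the libraries came from separate cultures, so that p values measure the spread between these libraries only, and intervals from counts would cover counting error only. Uneven replicates were not limited to a single library. On the chi-square scale above, Rcm replicate 3 had 34.5 and 33.4 with its partners, which had 10.2 with each other. In R-Scm 24 h, the pairs with replicate 1 had 32.2 and 41.1, and replicates 2 and 3 had 29.7. R-Scm 24 h replicate 1 deviated most from its group mean over all genes tested (0.37 log2 units in root mean square, against 0.26 to 0.33 in the other libraries), and it had the highest level of its group for 8 of the 9 enzymes. DEG counts of that group are therefore given with and without it.

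The levels of the 9 mRNAs moved together but not by equal amounts. Summed over the 9 enzymes, the level was 1119 ± 39.6 CPM (SD, n = 3) in Scm and 1766 ± 118 CPM in Rcm. MEFs moved to Scm had 728 ± 17.6 CPM after 12 h and 1151 ± 281 CPM after 24 h. For those moved to Rcm the sums were 1102 ± 30.3 and 1589.8 ± 166 CPM. The lowest sums were those of R-Scm 12 h, from 715 to 748 CPM, which lay below the lowest Scm library at 1079 CPM. The Rcm libraries, from 1630.2 to 1841 CPM, lay above all libraries of Scm, S-Rcm 12 h, R-Scm 12 h and R-Scm 24 h.

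**Figure D1:**
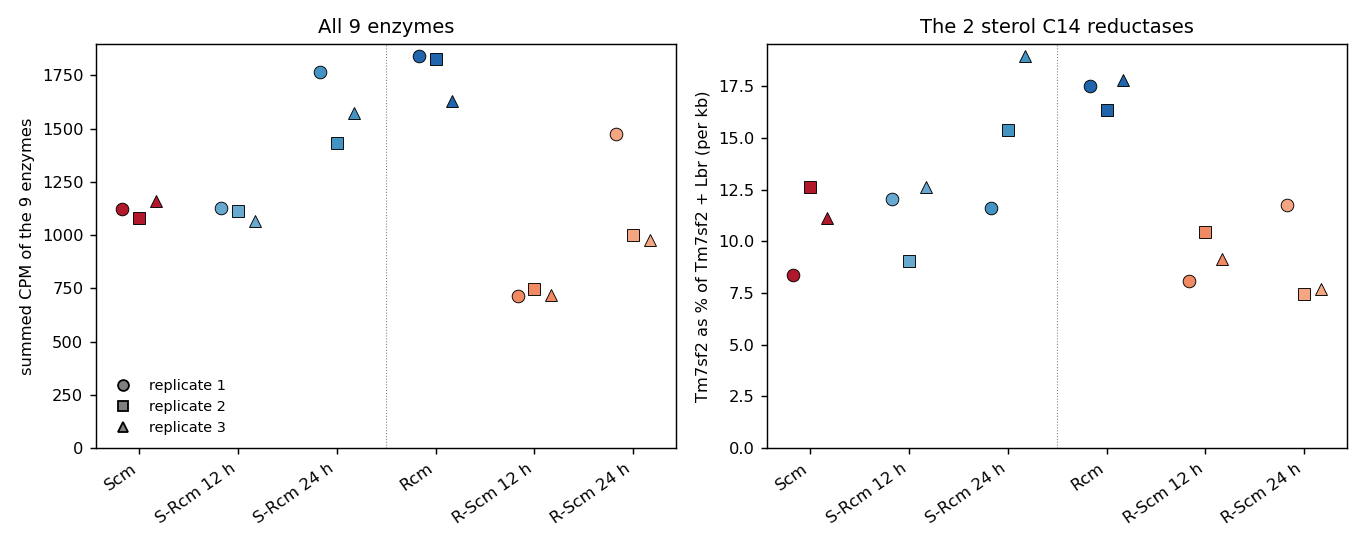
The left panel plots the summed level of the 9 enzymes in CPM for each of the 18 libraries by group, and the right panel plots the share of Tm7sf2 in the summed length-scaled level of Tm7sf2 and Lbr in percent; marker shapes give the replicate. The sum lay between 715 and 748 CPM in R-Scm 12 h and between 1630.2 and 1841 CPM in Rcm, and R-Scm 24 h replicate 1 stood at 1476 CPM above the other libraries of its group at 1002 and 976 CPM.

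The order of the levels was similar in Scm and Rcm. Per kilobase of the longest principal transcript, Sqle was highest in Scm at 95.5 ± 2.17 CPM per kb (SD, n = 3), followed by Msmo1, Lbr, Cyp51, Lss, Nsdhl, Fdft1, Hsd17b7 and Tm7sf2, the last at 6.73 ± 1.32 CPM per kb. In that order only Lss and Nsdhl overlapped as neighbours. Cyp51 and Lbr changed places with the serum. In Scm the level of Lbr was 56.3 ± 2.94 CPM per kb and that of Cyp51 44.4 ± 1.51, whereas in Rcm Cyp51 stood at 77.6 ± 2.48 and Lbr at 63.4 ± 2.76, and the libraries did not overlap in either medium. In Rcm, Sqle (133.9 ± 18.6 CPM per kb) and Msmo1 (119 ± 27.3) overlapped at the top of the order, as did Fdft1 and Lss further down.

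**Figure D2:**
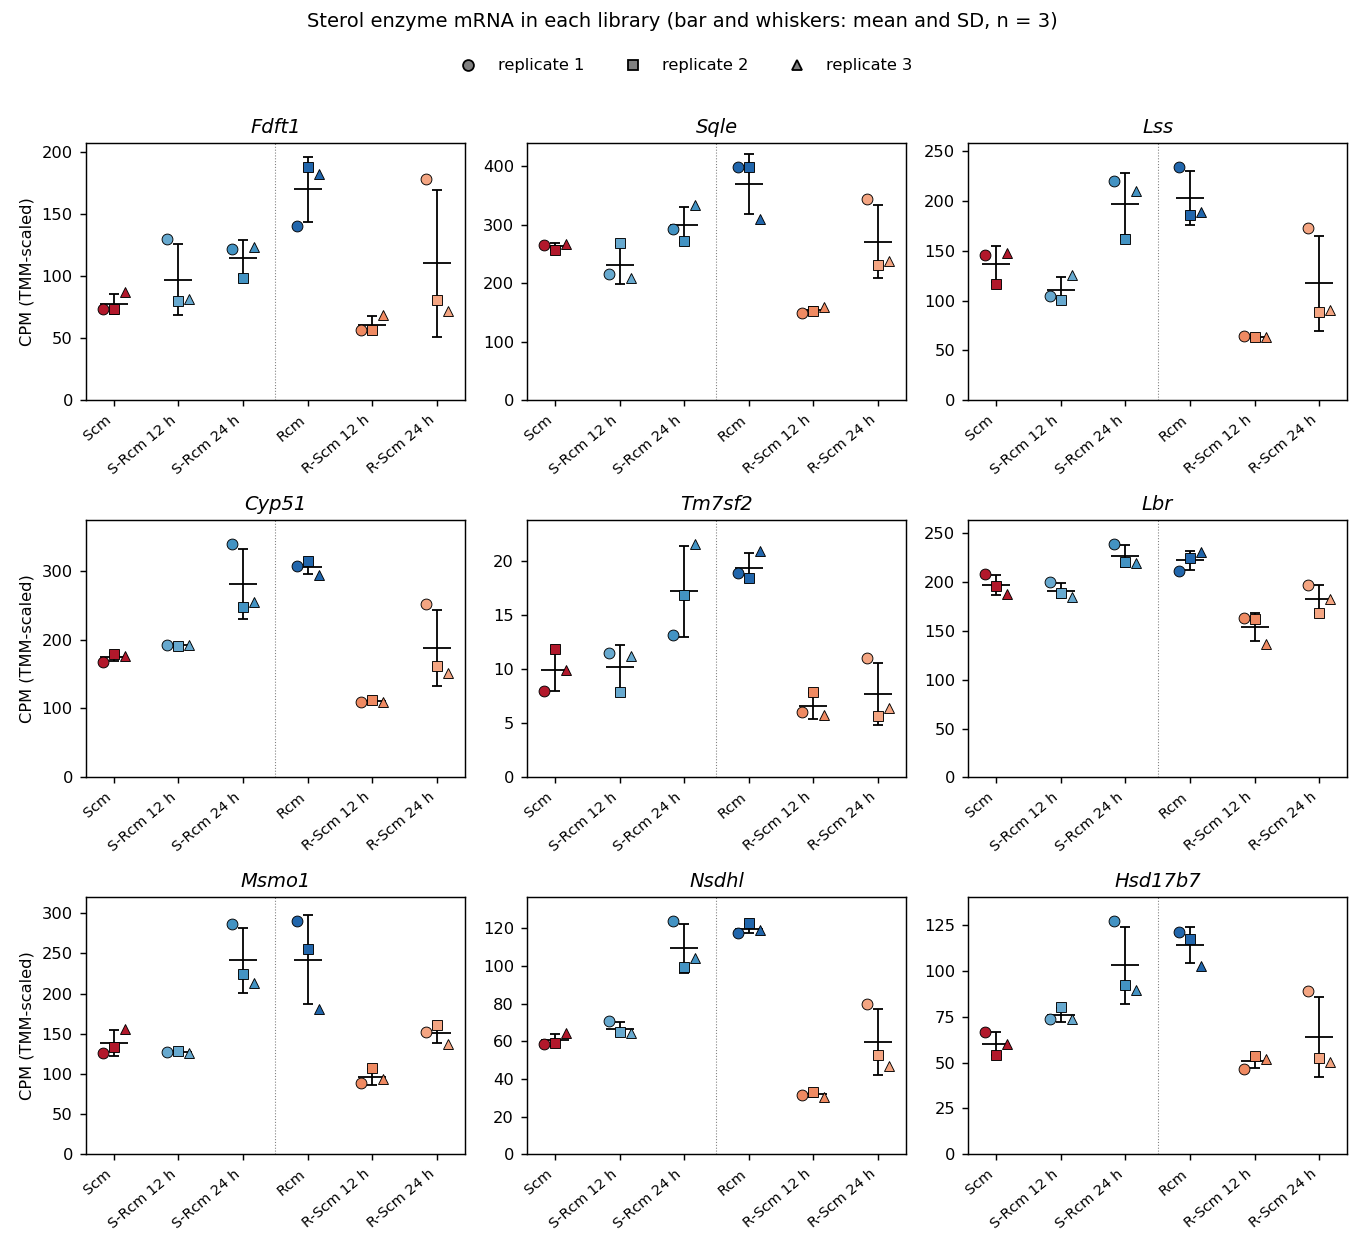
Each panel plots one of the 9 mRNAs in CPM by group, with a point for each library, marker shapes for the replicate, and a bar with whiskers for the mean and SD (n = 3). In each panel the lowest mean is that of R-Scm 12 h and the highest that of Rcm or S-Rcm 24 h, Lbr stays between 137 and 239 CPM, and the circle of R-Scm 24 h replicate 1 lies above its group in every panel but that of Msmo1.

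Fdft1 (chr14:63145150-63179578, minus strand, GRCm38) encodes squalene synthase, which joins a pair of farnesyl pyrophosphates into squalene. Its CPM were 73.1, 73.1 and 86.9 in Scm, against 139.9, 188 and 182 in Rcm. After the change to Scm the replicates had 56.9, 56.3 and 68.5 at 12 h, then 178, 80.6 and 71.7 at 24 h. After the change to Rcm they had 129.9, 79.6 and 81.8 at 12 h, then 122, 98.4 and 124 at 24 h. Its replicates were the most uneven of the 9, with a within-group SD of 0.37 log2 units against 0.09 to 0.32 for the others, and in 2 groups replicate 1 stood far above its partners. Its exons share 774 bases with those of Ctsb on the opposite strand, and reads of the 2 genes cannot be told apart if strand was not used in counting. A pseudogene, Gm6781, matches 1249 bases of Fdft1 at 97.4% identity, so that reads could be split between them.

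Sqle (chr15:59315077-59331192, plus strand) encodes squalene epoxidase, an oxygen-dependent and rate-limiting step. In Scm the replicates had 266, 257 and 268 CPM, and in Rcm 399, 399 and 310.0. R-Scm 12 h had 149, 152 and 160.3 CPM, and R-Scm 24 h had 344, 232 and 238. S-Rcm 12 h had 216, 269 and 209 CPM, and S-Rcm 24 h had 292, 273 and 334. The R-Scm 12 h libraries lay below all other libraries, and the lowest Rcm library lay above the highest Scm library. Lss (chr10:76531588-76557138, plus strand) encodes lanosterol synthase, which closes the rings. The CPM of its replicates were 146, 116 and 148 (Scm) and 234, 186 and 189 (Rcm). They were 64.2, 63.1 and 63.2 after 12 h in Scm, followed by 172, 88.6 and 90.8 after 24 h. In MEFs moved to Rcm they were 105, 101 and 126, followed by 220.3, 162 and 209.7. Its R-Scm 12 h libraries were nearly equal and lay below every other library, while R-Scm 24 h replicate 1 stood apart from its partners. Exons of Lss share 381 bases with 4930483K19Rik on the opposite strand.

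Cyp51 (chr5:4081145-4104746, minus strand) encodes the cytochrome P450 that removes the C14 methyl group of lanosterol. Its CPM were 168, 179 and 177 in Scm, against 307, 314 and 295 in Rcm. After the change to Scm the replicates had 110.0, 112 and 109 at 12 h, then 252, 161 and 152 at 24 h. After the change to Rcm they had 193, 191 and 192 at 12 h, then 339, 247 and 255 at 24 h. Its replicates were tight in 4 of the 6 groups, and the Scm, Rcm, R-Scm 12 h and S-Rcm 12 h libraries did not overlap between any pair of these groups. Its exons share 166 bases with Akap9 on the opposite strand.

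Tm7sf2 and Lbr encode proteins with the same sterol C14 reductase activity, which saturates the bond left by Cyp51. Tm7sf2 (chr19:6062821-6068373, minus strand) had the lowest level of the 9. In Scm the replicates had 7.97, 11.9 and 9.89 CPM, and in Rcm 18.8, 18.4 and 20.9. R-Scm 12 h had 6.02, 7.92 and 5.76 CPM, and R-Scm 24 h had 11.0, 5.68 and 6.37. S-Rcm 12 h had 11.5, 7.90 and 11.2 CPM, and S-Rcm 24 h had 13.2, 16.8 and 21.6. Every Rcm library lay above every library of Scm, S-Rcm 12 h, R-Scm 12 h and R-Scm 24 h. Its exons share 532 bases with Vps51 on the same strand.

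Lbr (chr1:181815335-181843046, minus strand) was expressed far more and moved least. The CPM of its replicates were 209, 196 and 188 (Scm) and 212, 225 and 231 (Rcm). They were 163, 162 and 137 after 12 h in Scm, followed by 197, 168 and 183 after 24 h. In MEFs moved to Rcm they were 200.4, 189 and 185, followed by 239, 221 and 220.1. Its highest group mean was 1.47 times its lowest, against 2.24 to 3.76 times for the other enzymes, but R-Scm 12 h was again the lowest group and lay apart from Scm and Rcm. Its exons share 440 bases with Dnah14 on the opposite strand.

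With levels scaled by transcript length, Tm7sf2 made up 8.35%, 12.6% and 11.1% of the 2 reductase mRNAs in Scm and 17.5%, 16.3% and 17.8% in Rcm. The share was 8.10%, 10.4% and 9.12% in R-Scm 12 h, while R-Scm 24 h had 11.8%, 7.46% and 7.68%. The libraries of Rcm did not overlap with those of Scm or of either R-Scm group, and a two-sided exact permutation test gave p = 0.1 for each, the smallest it allows with n = 3. In S-Rcm 24 h the share ran from 11.6% to 19.0% and overlapped both Scm (exact p = 0.2) and Rcm (exact p = 0.6). Lbr therefore remained the major reductase mRNA in each of the 18 libraries, 4.27 to 12.4 times the level of Tm7sf2. With the union of all annotated exons as the length, the mean ratio was 19.0 in Scm and 10.6 in Rcm in place of 8.62 and 4.82, also without overlap.

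The last 3 enzymes remove the C4 methyl groups in turn. Msmo1 (chr8:64718139-64733792, minus strand) encodes the C4-methyl sterol oxidase. Its CPM were 126, 133 and 157 in Scm, against 291, 255 and 181 in Rcm. After the change to Scm the replicates had 88.4, 107 and 93.3 at 12 h, then 153, 161 and 137 at 24 h. After the change to Rcm they had 127, 129 and 126 at 12 h, then 287, 224 and 213 at 24 h. It was the one enzyme for which R-Scm 24 h replicate 1 did not lead its group, and its S-Rcm 12 h libraries were even and overlapped those of Scm while S-Rcm 24 h lay within the range of Rcm. Nsdhl (chrX:72918557-72958514, plus strand) encodes the C4 sterol dehydrogenase that decarboxylates the oxidized intermediate. In Scm the replicates had 58.4, 58.9 and 64.5 CPM, and in Rcm 118, 123 and 119. R-Scm 12 h had 31.7, 33.2 and 30.6 CPM, and R-Scm 24 h had 79.7, 52.5 and 47.0. S-Rcm 12 h had 70.5, 64.9 and 64.2 CPM, and S-Rcm 24 h had 124, 99.5 and 104. Nsdhl had the widest range of the 9, 3.76-fold between group means, and even replicates in Scm, Rcm and R-Scm 12 h.

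Hsd17b7 (chr1:169949535-169969241, minus strand) encodes the reductase of the 3-keto sterol that Nsdhl leaves. The CPM of its replicates were 66.7, 54.4 and 60.1 (Scm) and 121, 118 and 103 (Rcm). They were 46.5, 53.8 and 52.1 after 12 h in Scm, followed by 89.0, 52.3 and 50.4 after 24 h. In MEFs moved to Rcm they were 73.7, 80.2 and 74.0, followed by 127, 92.4 and 89.7. Its S-Rcm 12 h libraries lay above all Scm libraries and its R-Scm 12 h libraries below them.

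Between MEFs kept in Rcm and in Scm, 6 of the 9 enzymes were higher in Rcm and none was lower. A differentially expressed gene (DEG) had to move by more than 0.58 on the log2 scale with an adjusted p below 0.05 in edgeR's quasi-likelihood test with Benjamini-Hochberg adjustment over the 15381 genes. Of all genes tested, 1.67% were higher DEGs in this comparison. The 6 were Fdft1, Cyp51, Tm7sf2, Msmo1, Nsdhl and Hsd17b7, with rises of 1.75-fold for Cyp51 and Msmo1 to 2.19-fold for Fdft1. The other members, Sqle, Lss and Lbr, had log2 fold changes of 0.49 ± 0.14 (SE), 0.57 ± 0.21 and 0.17 ± 0.09, with adjusted p = 0.0864, 0.175 and 0.333. For 9 of the 9 enzymes the Rcm libraries lay above the Scm libraries without overlap, which held in that direction for 12.8% of all genes. The median log2 fold change was 0.81 over the 9 and 0.01 over all genes tested. With a library of either group left out, the number of DEGs ran from 3, without Scm replicate 2 (Cyp51, Msmo1 and Nsdhl), to 5, without Rcm replicate 3. Those 5 were Sqle, with a log2 fold change of 0.59, Cyp51, Msmo1, Nsdhl and Hsd17b7. Over all genes, 1.13% to 3.66% were DEGs in either direction in the fits with a library left out, against 2.3% with all libraries. Fdft1 and Tm7sf2 were no DEGs in any of these 6 fits (adjusted p of 0.0628 to 0.155 and 0.063 to 0.188 by edgeR's quasi-likelihood test), while their log2 fold changes ran from 1.05 to 1.25 and from 0.83 to 1.12.

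After 12 h in Scm, MEFs from Rcm had 8 of the 9 enzymes lower than in Rcm, a comparison in which 1.22% of all genes were lower DEGs. The falls ran from a log2 fold change of -1.17 ± 0.18 for Hsd17b7 to -1.91 ± 0.15 for Nsdhl, and the adjusted p from 5.08e-06 for Nsdhl to 0.00625 for Fdft1 (edgeR's quasi-likelihood test). Nsdhl had the smallest p of all 15381 genes in this comparison. Lbr was the exception, with a log2 fold change of -0.53 ± 0.09 that passed the adjusted p (0.00197) and not the fold. The R-Scm 12 h libraries lay below the Rcm libraries without overlap for 9 of the 9, against 11.7% of all genes in that direction. The median over the 9 was -1.47, beside -0.01 for all genes. All 8 were called again in each of the 6 fits that left out a library, where 1.76% to 2.67% of all genes were DEGs in either direction. With the counts of the pseudogene Gm6781 added to Fdft1, its log2 fold change was -1.50 here and 1.09 in Rcm against Scm.

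**Figure D3:**
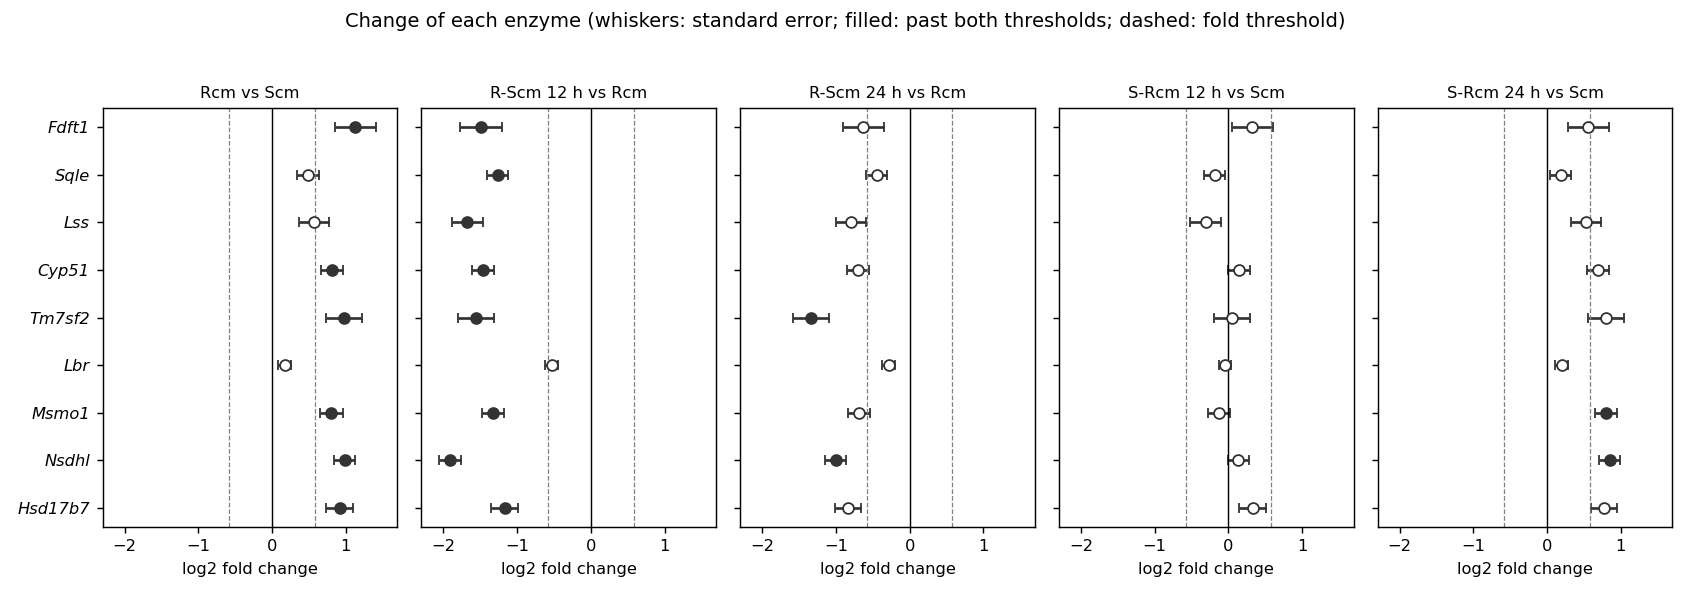
Each panel plots the log2 fold change of the 9 enzymes in one comparison, with whiskers for the standard error and dashed lines at the fold threshold of 0.58 in either direction; filled points are DEGs. Points lie to the right of 0 for 9 of 9 enzymes in Rcm against Scm and to the left for 9 of 9 in R-Scm 12 h against Rcm, where 8 are filled, and they scatter around 0 with none filled in S-Rcm 12 h against Scm.

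The levels at 12 h in Scm lay below those of MEFs kept in Scm. Against Scm, 4 enzymes were lower DEGs in R-Scm 12 h, Sqle (-0.78 ± 0.14, adjusted p = 0.00357), Lss (-1.11 ± 0.21, 0.00425), Cyp51 (-0.66 ± 0.15, 0.0137) and Nsdhl (-0.93 ± 0.15, 0.00108), by edgeR's quasi-likelihood test. Of all genes, 1.29% were lower DEGs in this comparison. Lbr (-0.36 ± 0.09, adjusted p = 0.0173) and Msmo1 (-0.52 ± 0.15, 0.0439) passed the adjusted p and not the fold, and Hsd17b7 had -0.25 ± 0.18 (adjusted p = 0.41). For 9 of the 9 the R-Scm 12 h libraries lay below every Scm library, which held for 17.7% of all genes. This comparison and the one against Rcm share the R-Scm 12 h libraries.

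At 24 h after the change to Scm, 2 of the 9 enzymes were lower DEGs against Rcm, Tm7sf2 (-1.33 ± 0.24, adjusted p = 0.0224) and Nsdhl (0.499-fold, adjusted p = 0.00613), where 0.195% of all genes were lower DEGs. Cyp51 (-0.70 ± 0.15), Msmo1 (-0.69 ± 0.15) and Hsd17b7 (-0.84 ± 0.18) stood on the threshold, with adjusted p = 0.0501, 0.0504 and 0.0504 by edgeR's quasi-likelihood test. The count turned on R-Scm 24 h replicate 1. Without it, 8 of the 9 were lower DEGs, all but Lbr, and the values were -0.65 for Sqle to -1.68 for Tm7sf2, while over all genes 3.19% were DEGs in either direction against 0.377% with it. Without another library of this comparison the count was 1 or 2, beside 0.0891% to 0.344% of all genes. EdgeR on these 2 groups alone gave 0, beside 0.0276% of all genes. The libraries of the group lay below those of Rcm without overlap for 7 of the 9, against 5.64% of all genes, and Fdft1 and Sqle overlapped through that library alone.

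R-Scm 24 h replicate 1 had 1.02 times (Msmo1) to 2.34 times (Fdft1) the mean of its partners. Its Fdft1 (178 CPM) and Sqle (344 CPM) fell within the range of Rcm. Against Scm, 0 of the 9 were DEGs in R-Scm 24 h by edgeR, 0 by DESeq2 and 0 at an unadjusted p under 0.05, with log2 fold changes from -0.36 ± 0.25 for Tm7sf2 to 0.50 ± 0.28 for Fdft1. Of all genes, 0.592% were DEGs in this comparison. Without replicate 1 the count was again 0, with values from -0.71 for Tm7sf2 to 0.11 for Msmo1, and 0.49% of all genes were DEGs. For 7 of the 9 enzymes, all but Fdft1 and Msmo1, replicates 2 and 3 both lay below every Scm library. The share of all genes for which this held was not computed, so this count has no baseline and no result is drawn from it. It also sets aside replicate 1, the highest of its group for 8 of the 9. Summed over the 9, replicates 2 and 3 had 1002 and 976 CPM, below the lowest Scm library at 1079 CPM.

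Between 12 h and 24 h in Scm, 4 enzymes rose, Sqle (0.82 ± 0.14, adjusted p = 0.00982), Cyp51 (0.77 ± 0.15, 0.0189), Msmo1 (0.64 ± 0.15, 0.0499) and Nsdhl (0.91 ± 0.15, 0.00752), by edgeR's quasi-likelihood test. Of all genes, 0.332% were higher DEGs between these times. Lss had a value as large, 0.89 ± 0.21, with an adjusted p of 0.0518, and Tm7sf2 had 0.22 ± 0.25. Without R-Scm 24 h replicate 1, Sqle (0.61) and Nsdhl (0.64) were the DEGs, and the value of Tm7sf2 was -0.13. Leaving out any R-Scm 12 h library also left Sqle and Nsdhl as the only DEGs.

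The opposite exchange, from Scm to Rcm, showed no DEG among the enzymes at the earlier time. After 12 h in Rcm, 0 of the 9 were DEGs against Scm by edgeR or DESeq2, and 0 had an unadjusted p under 0.05, while 0.858% of all genes were DEGs in either direction. The log2 fold changes ran from -0.31 ± 0.21 for Lss to 0.33 ± 0.18 for Hsd17b7, 5 positive and 4 negative. Cyp51 and Hsd17b7 had all S-Rcm 12 h libraries above all Scm libraries, which held for 14.4% of all genes, and none of the 9 had them all below. At 24 h, 2 were higher DEGs, Msmo1 (0.80 ± 0.15, adjusted p = 0.0223) and Nsdhl (0.85 ± 0.14, 0.0163), where 0.221% of all genes were higher DEGs. Cyp51 (0.69 ± 0.15, adjusted p = 0.0577), Hsd17b7 (0.77 ± 0.18, 0.0823) and Tm7sf2 (0.80 ± 0.24, 0.246) had values of like size that did not pass edgeR's quasi-likelihood test. For 9 of the 9 the S-Rcm 24 h libraries lay above the Scm libraries, against 10.6% of all genes, and the median was 0.69.

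At 24 h in Rcm, calls were lost with a library left out while the fold changes stayed above the fold threshold, with 0.66 to 0.89 for Msmo1 and 0.75 to 0.91 for Nsdhl on the log2 scale. By edgeR's quasi-likelihood test, adjusted p was 0.0482 to 0.136 for Msmo1 and 0.0305 to 0.0867 for Nsdhl. The count was 0 without any of the 3 Scm libraries or without S-Rcm 24 h replicate 1, 1 (Nsdhl) without replicate 2 and 2 without replicate 3. The calls over all genes fell as well, with 0.0382% to 0.178% DEGs in either direction in these fits, against 0.338% with all libraries. With DESeq2 the count was 4, adding Cyp51 and Hsd17b7, where 0.452% of all genes were DEGs. Against MEFs kept in Rcm, S-Rcm 24 h had 0 DEGs among the 9 by edgeR and by DESeq2 and 0 at an unadjusted p under 0.05, with log2 fold changes from -0.57 ± 0.28 for Fdft1 to 0.03 ± 0.09 for Lbr, where 0.221% of all genes were DEGs. Between 12 h and 24 h in Rcm, Msmo1 was the single DEG (0.92 ± 0.15, adjusted p = 0.0167 by edgeR's quasi-likelihood test), among 0.065% of all genes that were higher DEGs. Nsdhl followed with 0.72 ± 0.14 (adjusted p = 0.0522). That call of Msmo1 was lost without S-Rcm 24 h replicate 1 or any S-Rcm 12 h library. In those fits 0.051% to 0.0701% of all genes were DEGs in either direction, against 0.156% with all libraries.

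**Figure D4:**
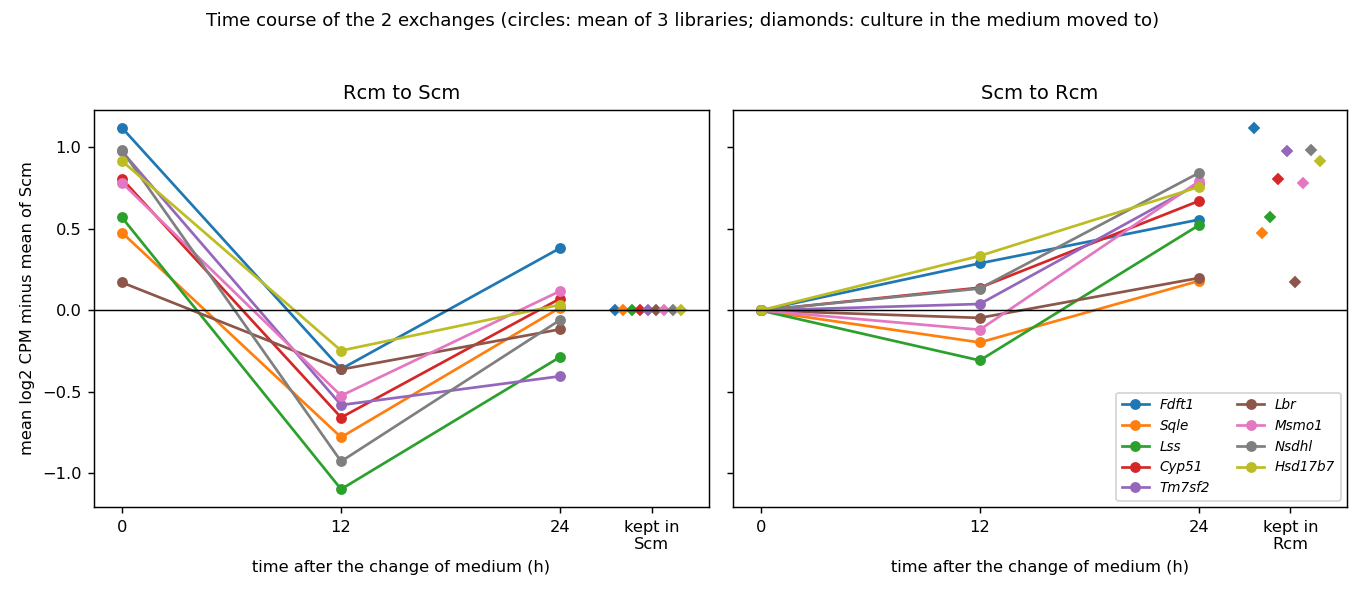
The panels plot the mean log2 CPM of each enzyme minus its mean in Scm against the time after the change of medium in h, from Rcm to Scm on the left and from Scm to Rcm on the right; circles are means of 3 libraries without error bars and diamonds are MEFs kept in the medium moved to. On the left 9 of 9 lines pass below 0 at 12 h and lie higher again at 24 h, and on the right the lines scatter around 0 at 12 h and 9 of 9 lie above 0 at 24 h.

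The exchanges were not mirror images at 12 h. The log2 fold change of R-Scm 12 h against Rcm was added to that of S-Rcm 12 h against Scm, a sum of 0 where a gene moves equally far in opposite directions. The sum was below 0 for 9 of the 9 enzymes, with a median of -1.45 beside 0.01 for all genes. It passed both thresholds for 6, Sqle (-1.45 ± 0.20, adjusted p = 0.000974), Lss (-1.99 ± 0.29, 0.00132), Cyp51 (-1.33 ± 0.21, 0.00222), Tm7sf2 (-1.51 ± 0.35, 0.0223), Msmo1 (-1.45 ± 0.21, 0.00121) and Nsdhl (-1.78 ± 0.21, 0.000202) by edgeR's quasi-likelihood test. Of all genes, 1.27% were called in that direction. Hsd17b7 had -0.84 ± 0.26 (adjusted p = 0.0844) and Fdft1 had -1.17 ± 0.39 (0.12). Relative to the log2 gap between Scm and Rcm, the 6 enzymes that were DEGs in that comparison had covered -15.1% to 36.5% of it after 12 h in Rcm and 49.7% to 101% after 24 h. In Scm they had covered 127% to 194% after 12 h and 65.8% to 141% after 24 h, and without R-Scm 24 h replicate 1 the latter was 86.3% to 171%. Over all 9, including Sqle, Lss and Lbr with their smaller gaps, the shares in Rcm were -53.7% (Lss) to 36.5% (Hsd17b7) after 12 h and 37.9% (Sqle) to 116% (Lbr) after 24 h. In Scm they were 127% (Hsd17b7) to 311% (Lbr), then 65.8% (Fdft1) to 167% (Lbr), or 86.3% (Msmo1) to 205% (Lss) without that replicate. These shares use the same Scm and Rcm libraries throughout.

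Partners of Lbr in the nuclear envelope and in heterochromatin were examined beside it. None of the 9 (Lmna, Lmnb1, Lmnb2, Emd, Lemd3, Tmpo, Cbx1, Cbx3 and Cbx5) was a DEG in any of the 10 comparisons between groups by edgeR or DESeq2, and 0 to 2 had an unadjusted p under 0.05 in a comparison. In R-Scm 12 h against Rcm, where Lbr had -0.53, their log2 fold changes ran from -0.26 to 0.03 with a median of -0.11. In Rcm against Scm they ran from -0.22 to 0.31. In R-Scm 12 h against Scm they ran from -0.48 (Lmna, adjusted p = 0.0828) to 0.26 (Cbx1), and Lemd3 passed the adjusted p (-0.32 ± 0.07, adjusted p = 0.0117) but not the fold threshold. Lbr had -0.36 ± 0.09 there (adjusted p = 0.0173 by edgeR's quasi-likelihood test) and was itself no DEG in any of the 10 comparisons by edgeR.

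Over the 18 libraries, the log2 CPM of each enzyme was compared with the mean of the other 8. Pearson's r was 0.84 for Fdft1 to 0.99 for Nsdhl (Spearman's rho 0.81 to 0.97), and 0.90 for Lbr despite its narrow range. These values describe libraries that share groups, depth and scaling, and are given without a test. Among the genes outside the 9 whose profiles were most like the mean of the standardized profiles of the 9 were Fdps (r = 0.99), Hmgcs1 (0.97), Acly (0.97), Rdh11 (0.97), Fads1 (0.96), Insig1 (0.96), Idi1 (0.96) and Fads2 (0.96).

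Of the enzymes before squalene, Acat2, Hmgcs1, Mvk, Pmvk, Mvd, Idi1 and Fdps were counted in the same comparisons. Of these 7, 4 were higher DEGs in Rcm than in Scm, 7 and 3 were lower in R-Scm 12 h and R-Scm 24 h against Rcm, and 0 and 1 were higher in S-Rcm 12 h and 24 h against Scm. DESeq2 gave 5, 7, 7, 0 and 2, and 0 had an unadjusted p under 0.05 in S-Rcm 12 h. Their median log2 fold changes were 0.76, -1.65, -0.84, 0.10 and 0.63 in that order. Over all genes, edgeR called 2.3%, 2.74%, 0.377%, 0.858% and 0.338% in either direction. The shares by DESeq2 were 1.63%, 1.88%, 0.543%, 0.861% and 0.452%. Without R-Scm 24 h replicate 1, 7 of the 7 enzymes before squalene were lower DEGs in R-Scm 24 h against Rcm, with a median of -1.21. Calls over all genes rose as well, to 3.19% from 0.377%. Of the enzymes after demethylation, Ebp, Sc5d and Dhcr7 gave 1, 2, 0, 0 and 0 DEGs in the same comparisons and directions by edgeR, and 1, 2, 1, 0 and 1 by DESeq2. Without R-Scm 24 h replicate 1, 3 of the 3 were lower DEGs in R-Scm 24 h against Rcm, beside the same 3.19% of all genes. With all libraries, 3 had an unadjusted p under 0.05 in R-Scm 24 h against Rcm, and 1 and 3 in S-Rcm at 12 h and 24 h against Scm.

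The oxygenase steps draw electrons from Por and from cytochrome b5 with its reductase, and Erg28 is a scaffold of the C4 demethylation complex. Erg28 was the DEG of these 5 in Rcm against Scm (0.63 ± 0.11, adjusted p = 0.00466) and in R-Scm 12 h against Rcm (-0.79 ± 0.11, adjusted p = 0.000709, edgeR's quasi-likelihood test). In R-Scm 24 h against Rcm, 0 of the 5 were DEGs with all libraries. Without R-Scm 24 h replicate 1, Erg28 was a lower DEG there (-0.73 ± 0.09, adjusted p = 0.000295, edgeR's quasi-likelihood test), beside 3.19% of all genes in either direction. Por, the reductase of Cyp51 and Sqle, had 0.11 ± 0.12 in Rcm against Scm and was no DEG. It had -0.49 ± 0.12 in R-Scm 12 h against Rcm, short of the fold threshold. In that comparison 3 of the 5 had an adjusted p under 0.05 by edgeR's quasi-likelihood test, and 1 was a DEG. Cyb5a, a cytochrome b5, took another course, with 0.90 ± 0.15 in S-Rcm 12 h against Scm (adjusted p = 0.00539), where 0 of the 9 sterol enzymes were DEGs, and -0.84 ± 0.15 between 12 h and 24 h in Scm (adjusted p = 0.00962), or -0.76 ± 0.16 without R-Scm 24 h replicate 1 (adjusted p = 0.0201).

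Of 8 regulators of the pathway (Srebf1, Srebf2, Scap, Insig1, Insig2, Mbtps1, Mbtps2 and Marchf6), none was a DEG between Rcm and Scm by edgeR, 2 had an unadjusted p under 0.05 and DESeq2 gave 1. In R-Scm 12 h, 2 were lower than in Rcm. They were Insig1, which retains the SREBP complex in the endoplasmic reticulum (-1.91 ± 0.19, adjusted p = 3.76e-05), and Srebf2, the SREBP of sterol synthesis (-0.81 ± 0.14, 0.00307), by edgeR's quasi-likelihood test. Srebf1 had -0.14 ± 0.10 in that comparison (adjusted p = 0.558). The same 2 were lower in R-Scm 12 h than in Scm and rose again between 12 h and 24 h in Scm, with values of 0.62 ± 0.14 for Srebf2 and 1.05 ± 0.19 for Insig1 in the later step. Without R-Scm 24 h replicate 1 these were 0.46 ± 0.13 for Srebf2 (adjusted p = 0.0904), no longer a DEG, and 0.70 ± 0.13 for Insig1 (adjusted p = 0.00976), and Insig1 was also lower in R-Scm 24 h than in Rcm (-1.22 ± 0.14, adjusted p = 0.000121 by edgeR's quasi-likelihood test).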

How the data were processed

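RNA of MEFs was read in paired ends on a NovaSeq instrument, per the study's methods, and reads were aligned with HISAT2 to GRCm38, the build named in the labels. The authors deposited whole-number counts per gene for each of the 18 libraries. The counting tool and its strand setting are not given in the sources used here. Members and gene lists were chosen with earlier results of these data known.

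Genes were filtered with filterByExpr by group (15381 of 55487 tested), and library sizes were summed over the genes tested and scaled by TMM. All 18 libraries were fitted together with edgeR 4.0.16 (robust quasi-likelihood, R 4.3.3, limma 3.58.1), with Benjamini-Hochberg adjustment over all genes tested. A DEG needed an absolute log2 fold change of over 0.58 and an adjusted p of under 0.05. Standard errors are those of the fitted log2 fold change. Log2 CPM used a prior count of 2. Levels were compared between genes per kilobase of the longest APPRIS principal transcript. The text names all 9 members, the gene lists given with their counts, and genes among the 10 whose profiles were most like that of the members. Some genes of these lists are not reported here. The edgeR step was tested on simulated data.

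The alternatives were RLE scaling, a replicate block, all genes unfiltered, a stricter minimum of 10 counts in each library, the compared groups alone, DESeq2 1.42.0, adjusted p alone, each library left out, and Fdft1 summed with its pseudogene. Library sizes from all genes, and the gene lists and gap shares without R-Scm 24 h replicate 1, were added after seeing the data. Near-identical copies were sought with blastn 2.17.0, and plots were drawn with matplotlib 3.10.9.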

Additional observations from a re-analysis of the deposited data

Results flagged for a closer look

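The direct test between the time points showed effects that differed between 12 h and 24 h (edgeR's quasi-likelihood test on 18 libraries). In Scm after Rcm, the log2 fold change of 24 h against 12 h was 0.82 for Sqle, 0.77 for Cyp51, 0.64 for Msmo1 and 0.91 for Nsdhl. Without R-Scm 24 h replicate 1 the values were 0.61, 0.50, 0.63 and 0.64, and Sqle and Nsdhl remained past both thresholds. Over all genes, 1.97% were called in either direction without that replicate, against 0.774% with it. In Rcm after Scm, the value for Msmo1 was 0.92. No cause of these differences was tested.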

How the results depend on the processing

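Counts of enzymes called were within 1.5 times for Rcm against Scm (5 to 6), R-Scm 12 h against Rcm (8 to 9), R-Scm 12 h against Scm (4 to 6) and the sum of the exchanges (6 to 9) under each alternative that kept all libraries. Over all genes, 1.08% to 3.18%, 1.27% to 4.19%, 1.99% to 7.46% and 1.26% to 4.04% were called in either direction, in that order. For R-Scm 24 h against Rcm, 2 with the chosen settings, the count was 5 with no filter, 5 with the replicate block, 0 with the compared groups alone and 6 with DESeq2. Over all genes 0.377% were DEGs with the chosen settings, then 0.241%, 0.442%, 0.0276% and 0.543% in that order. For S-Rcm 24 h against 12 h, 1 with the chosen settings, it was 2 with no filter, 2 with the replicate block and 3 with DESeq2. The shares of all genes were 0.156%, then 0.0904%, 0.163% and 0.298%. R-Scm 24 h against 12 h gave 0 with the compared groups alone (0.0137% of all genes, against 0.774% with the chosen settings). S-Rcm 24 h against Scm gave 4 with DESeq2 (0.452%, against 0.338%). The cause was not tested.

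With each library left out in turn, the counts ran from 3 to 5 for Rcm against Scm, 8 to 8 for R-Scm 12 h against Rcm, 1 to 8 for R-Scm 24 h against Rcm, 0 to 2 for S-Rcm 24 h against Scm, 3 to 5 for R-Scm 12 h against Scm, 2 to 4 for R-Scm 24 h against 12 h, 0 to 1 for S-Rcm 24 h against 12 h and 5 to 7 for the sum of the exchanges. In the same order, the shares of all genes called were 1.13% to 3.66%, 1.76% to 2.67%, 0.0891% to 3.19% and 0.0382% to 0.178%. They were 2.25% to 4.9%, 0.363% to 1.97%, 0.051% to 0.102% and 1.85% to 2.78% for the last 4. The counts of 0 stayed 0 under every alternative and without each library. Over all genes these fits called 0.229% to 1.79% in S-Rcm 12 h against Scm and 0.108% to 0.611% in R-Scm 24 h against Scm. In S-Rcm 24 h against Rcm they called 0 to 0.348%.

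Enzymes whose values changed sign in a comparison were no DEGs in it under any setting. Msmo1 in S-Rcm 24 h against Rcm had 0.0029 with no filter, 0.00081 with the compared groups alone and 0.0030 with DESeq2. With a library left out the log2 fold changes in that comparison ran from -0.17 to 0.15 for Msmo1, -0.13 to 0.083 for Lss and -0.012 to 0.059 for Lbr. In R-Scm 24 h against Scm they ran from -0.029 to 0.75 for Fdft1, -0.17 to 0.14 for Sqle, -0.16 to 0.26 for Cyp51, -0.29 to 0.14 for Nsdhl and -0.24 to 0.24 for Hsd17b7. Tm7sf2 ran from -0.093 to 0.19 in S-Rcm 12 h against Scm and from -0.13 to 0.40 in R-Scm 24 h against 12 h.

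Replicate numbers are shared between groups in the labels. Of the 30 pairs of same-numbered libraries, 5 had a correlation of deviations over 0.1 (range -0.20 to 0.35). With 3 libraries per group, this cannot show whether libraries of the same number shared a culture or a batch. With the replicate block the counts were 5 for Rcm against Scm, 8 for R-Scm 12 h against Rcm and 4 for R-Scm 12 h against Scm. Over all genes, 2.22%, 2.58% and 4.24% were called in either direction in that order. For R-Scm 24 h against Rcm the count was 5 with the block and 2 without it, beside 0.442% and 0.377% of all genes. Titles and count columns number the libraries of S-Rcm 24 h, R-Scm 12 h and R-Scm 24 h differently. The block used the title numbers, and by column number 3 of 23 pairs were over 0.1 (range -0.21 to 0.17). Whether either numbering pairs the samples was not settled, and the chosen fit used no pairing. Tm7sf2 had the fewest counts, 90 in its lowest library.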
